A study of Homo sapiens with 12 samples.

Results

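The 10 genes described here are known as targets of TFE3 and its relatives in nutrient sensing and autophagy. They are FLCN, FNIP1, FNIP2, RRAGC, RRAGD, GPNMB, SQSTM1, UVRAG, PPARGC1A and MCOLN1. They were chosen by gene symbol as 10 of the 58735 genes in the count table, and all 10 were among the 18415 genes with enough counts to be tested. All libraries were made from the liposarcoma cell line SW872 (human), in which 1 of 2 sarcoma fusion proteins was stably expressed, TAZ-CAMTA1 (TC) or YAP-TFE3 (YT). Each line carried a stable non-targeting hairpin (shNT), a hairpin against YEATS2 (shYEATS2) or a hairpin against ZZZ3 (shZZZ3), which gave 6 groups of 2 libraries: TC shNT, TC shYEATS2, TC shZZZ3, YT shNT, YT shYEATS2 and YT shZZZ3. YEATS2 and ZZZ3 are subunits of the ATAC histone acetyltransferase complex. All 12 libraries come from 1 parental line and carry a fusion driven from a retroviral vector and a hairpin from a lentiviral vector, and no library without a fusion was analysed here, so the fusions are compared only with each other. The study grew lines with CAMTA1 below confluence and its other lines to confluence, without saying whether this held for the hairpin libraries, so that confluence and fusion cannot be told apart. The labels number the libraries of a group as replicates, and the study describes them as biological duplicates. The p-values measure the spread between such duplicates of 1 parental line, pooled over all 6 groups and shared in part across genes.

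TFE3, TFEB, MITF and TFEC form the MiT/TFE family of basic helix-loop-helix factors, which bind E-boxes and turn on lysosomal and autophagy genes when nutrients are scarce. When amino acids are plentiful, Rag GTPases at the lysosome, dimers of RagA or RagB with RagC or RagD, recruit mTORC1 and also bring TFE3 and TFEB to it, and the phosphorylated factors stay in the cytoplasm. Folliculin (FLCN) with FNIP1 or FNIP2 acts on RagC and RagD in this step, so that several of the factors' targets code for the machinery that restrains them. The YAP-TFE3 fusion keeps the DNA-binding part of TFE3.

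The region just upstream of the start site was read for the genes with a RefSeq promoter entry, because MiT/TFE factors bind defined letters. Of the 10 genes, 8 had an entry (GRCh38.p14), with 12 start sites among them, and all 12 windows of 250 bases matched the hg38 genome. The letters searched, on both strands, were CACGTG (the E-box), CACGTGAC (an E-box extended as in lysosomal gene promoters, which contains the former), TCATGTG (the M-box of MITF), GGAATG (the TEAD motif) and TGANTCA (the AP-1 motif). An E-box stood in the window of 4 genes (FNIP1, RRAGC, PPARGC1A and MCOLN1), against 6.34% of all 35116 promoter windows, and the extended form stood in the same 4, against 2.16%. An M-box stood in GPNMB and at the downstream start of FNIP2, against 2.52% of all windows. The AP-1 letters stood in RRAGC and GPNMB, against 6.57%, and the TEAD letters, found in 11.9% of all windows, stood in 0 of the 12. FLCN and SQSTM1 held none of these letters, and RRAGD and UVRAG had no entry.

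Of the 6 genes whose windows hold E-box or M-box letters, 5 are shown, with these letters in capitals. FNIP2 is left out, since its M-box (at -142) lies before the downstream of its 2 starts. They are, 5′ to 3′ on the strand of the gene, FNIP1 (chr5:131797018-131797267, minus strand), RRAGC (chr1:38859773-38860022, minus), PPARGC1A (chr4:24472906-24473155, minus, the more distal of 2 starts), MCOLN1 (chr19:7522374-7522623, plus) and GPNMB (chr7:23246525-23246774, plus).
FNIP1: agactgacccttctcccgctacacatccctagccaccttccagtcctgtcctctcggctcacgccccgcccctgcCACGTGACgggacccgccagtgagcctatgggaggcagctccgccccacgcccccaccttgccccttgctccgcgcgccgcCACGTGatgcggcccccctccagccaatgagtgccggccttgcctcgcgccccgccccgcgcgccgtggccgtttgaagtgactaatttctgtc
RRAGC: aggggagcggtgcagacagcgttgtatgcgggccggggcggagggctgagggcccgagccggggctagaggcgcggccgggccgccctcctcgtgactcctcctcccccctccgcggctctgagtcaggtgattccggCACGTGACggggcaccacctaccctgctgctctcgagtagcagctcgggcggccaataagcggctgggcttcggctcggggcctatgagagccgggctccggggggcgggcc
PPARGC1A: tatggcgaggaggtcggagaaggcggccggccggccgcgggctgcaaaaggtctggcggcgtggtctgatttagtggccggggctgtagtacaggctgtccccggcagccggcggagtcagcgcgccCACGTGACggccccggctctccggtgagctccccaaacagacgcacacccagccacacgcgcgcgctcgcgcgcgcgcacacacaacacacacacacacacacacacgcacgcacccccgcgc
MCOLN1: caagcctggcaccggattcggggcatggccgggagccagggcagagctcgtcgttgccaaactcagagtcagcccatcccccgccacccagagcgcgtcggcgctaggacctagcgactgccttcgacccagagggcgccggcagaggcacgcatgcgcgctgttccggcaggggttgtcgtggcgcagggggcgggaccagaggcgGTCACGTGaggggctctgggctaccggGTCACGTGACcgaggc
GPNMB: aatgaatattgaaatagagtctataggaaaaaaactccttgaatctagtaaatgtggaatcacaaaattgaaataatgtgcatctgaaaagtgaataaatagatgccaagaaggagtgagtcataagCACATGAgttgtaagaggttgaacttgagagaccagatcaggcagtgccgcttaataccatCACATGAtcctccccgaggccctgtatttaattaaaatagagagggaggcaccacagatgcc
Counted from the start, with the base before it as -1, GPNMB holds 2 M-boxes, whose first bases are at -123 and -62. MCOLN1 holds 2 E-boxes close to the start, at -41 and -14, and both are extended. FNIP1 also holds 2 E-boxes, at -175 and -94, of which the more distant one is extended. The single E-boxes of RRAGC and PPARGC1A are at -112 and -123. The distal PPARGC1A start lies outside the span of the gene in the annotation used for positions (chromosome 4, 23755041 to 23904089). These matches describe letters and were not measured as binding.

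Total counts ranged from 17451893 to 29294805 per library. Levels are given as CPM, counts scaled to library size with the trimmed mean of M values, and a gene is called where its adjusted p is under 0.05 by edgeR's quasi-likelihood test with Benjamini-Hochberg adjustment over all genes tested. The replicates lay closer in some groups than in others: the SD of their log2 CPM difference over 13258 genes was 0.622 in TC shNT, 0.558 in YT shZZZ3 and 0.512 in TC shYEATS2, against 0.213 to 0.267 in the other groups. In TC shNT and YT shZZZ3 this difference followed the GC content of the transcript, with a correlation across genes of 0.789 and 0.704, against -0.373 to 0.281 in the other groups. YEATS2 averaged 118 CPM in TC shNT against 40.3 in TC shYEATS2, and 116 CPM in YT shNT against 36.2 in YT shYEATS2, and the fall was called in both lines (adjusted p = 0.0138 and 0.000105). In TC the call was lost when the 2 groups were fitted alone (0.164) and without TC shZZZ3 replicate 1 (0.0502) or YT shNT replicate 1 or 2 (0.0546 and 0.0549). ZZZ3 was at 25.6 and 60.4 CPM in TC shNT and at 21.9 and 22.7 in TC shZZZ3, which did not pass (log2 fold change -0.94, adjusted p = 0.450). The study reports the ZZZ3 knock-down in SW872 TC cells at the protein level, by western blot. By edgeR ZZZ3 passed in TC without a filter on low counts (-0.97, adjusted p = 0.0114) and with the replicate block and the GC trend removed (-0.76, adjusted p = 0.0402). In the YT line it went from 71.2 and 49.1 CPM to 12.6 and 29.6, and the fall was called (-1.51, adjusted p = 0.0453), but it was lost when any of 9 of the 12 libraries was left out, with the smallest change without YT shZZZ3 replicate 1 (-0.97, adjusted p = 0.226). TFE3 itself, which also collects the reads of the fusion transgene, was at 191 and 124 CPM in TC shNT and at 223 and 239 CPM in YT shNT (log2 fold change 0.56, SE 0.230, adjusted p = 0.165), which did not pass. It passed with the GC trend removed (0.73, adjusted p = 0.00188) and without TC shNT replicate 1 (0.88, adjusted p = 0.0418), and with the GC trend removed TFE3 was also lower in YT shZZZ3 than in YT shNT (-0.47, adjusted p = 0.0182). CAMTA1, which collects the reads of the other fusion, was higher in TC shNT (66.3 against 26.7 CPM, log2 fold change -1.31 for YT over TC, adjusted p = 0.00340). Within the TC line CAMTA1 was at 72.4 and 60.1 CPM in shNT, 110 and 78.2 in shYEATS2 and 154 and 137 in shZZZ3. Within the YT line TFE3 was at 208 and 209 CPM in shYEATS2 and at 207 and 144 CPM in shZZZ3. The part of these levels in the comparisons of the knock-downs was not tested. The 5 mesenchymal markers VIM, COL1A1, FN1, THY1 and SPARC were present in every library and summed to between 7036 and 13810 CPM. Of the other cell types, 5 endothelial markers summed to 42.8 to 269 CPM, 5 epithelial markers, nearly all from KRT8 and KRT18, to 285 to 912 CPM, and 5 adipocyte markers, nearly all from PPARG and LPL, to 122 to 341 CPM, and their part in the results was not tested.

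With the non-targeting hairpin, 4 of the 10 genes were higher in YT than in TC cells: PPARGC1A, RRAGD, GPNMB and RRAGC. Over all genes 5.58% were called higher and 3.65% lower in this comparison, and 0 of the 10 were called lower. The log2 fold change was above 0 for all 10 genes, with a median of 0.77 against -0.01 over all genes tested. The other 6 genes did not pass, FNIP2 coming nearest. In these bulk libraries more cells that express a gene and more RNA per cell cannot be told apart. The comparison bears on which nutrient-sensing genes run at a higher level with the TFE3 fusion than with the CAMTA1 fusion.

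**Figure D1:**
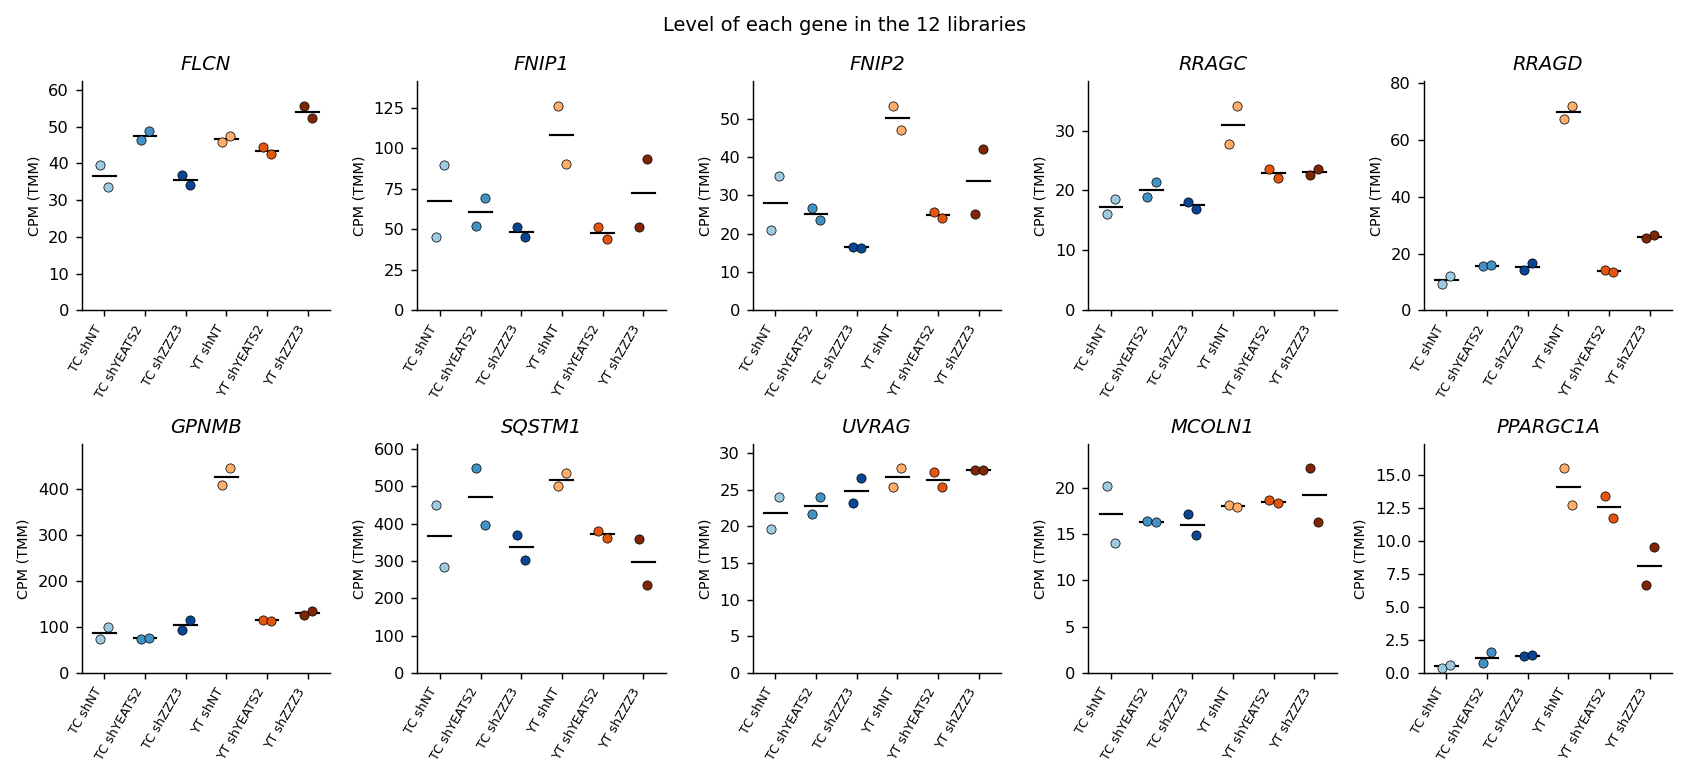
Level of the 10 genes in CPM (vertical axes, from 0) in the 12 libraries by group; points are libraries and bars are group means. YT shNT stands above every other library for RRAGD, GPNMB, FNIP2 and RRAGC, and the 6 YT libraries stand above the 6 TC libraries for PPARGC1A and RRAGC. The share of all genes whose libraries separate in these ways was not counted.

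Both genes for the RagC and RagD GTPases were higher. RRAGD codes for RagD, which pairs with RagA or RagB (chromosome 6, 89364616 to 89412273). It was at 9.19 and 12.2 CPM in TC shNT and at 67.6 and 72.2 CPM in YT shNT, and the groups did not overlap. This was a log2 fold change of 2.71 (SE 0.198, adjusted p = 3.05e-05), a 6.54-fold higher level. In the other TC groups RRAGD was at 15.5 and 15.8 CPM (shYEATS2) and at 14.0 and 16.8 CPM (shZZZ3). In the YT line it dropped to 14.2 and 13.5 CPM with shYEATS2 and to 25.5 and 26.5 CPM with shZZZ3. Thus the YT shYEATS2 libraries lay within the range of the TC libraries, while the YT shZZZ3 libraries stayed above all of them.

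RRAGC codes for RagC, the paralog of RagD (chromosome 1, 38838198 to 38859772). It was at 16.1 and 18.5 CPM in TC shNT and at 27.7 and 34.2 CPM in YT shNT (log2 fold change 0.84, SE 0.194, adjusted p = 0.0203, 1.79-fold). The levels were 18.9 and 21.3 CPM in TC shYEATS2, 18.1 and 16.9 CPM in TC shZZZ3, 23.5 and 22.1 CPM in YT shYEATS2 and 22.6 and 23.6 CPM in YT shZZZ3. All 6 YT libraries were above all 6 TC libraries. The call was lost without YT shNT replicate 2 (adjusted p = 0.234), TC shNT replicate 1 (0.107) or YT shNT replicate 1 (0.0724), and when the 2 groups were fitted alone (0.131).

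**Figure D2:**
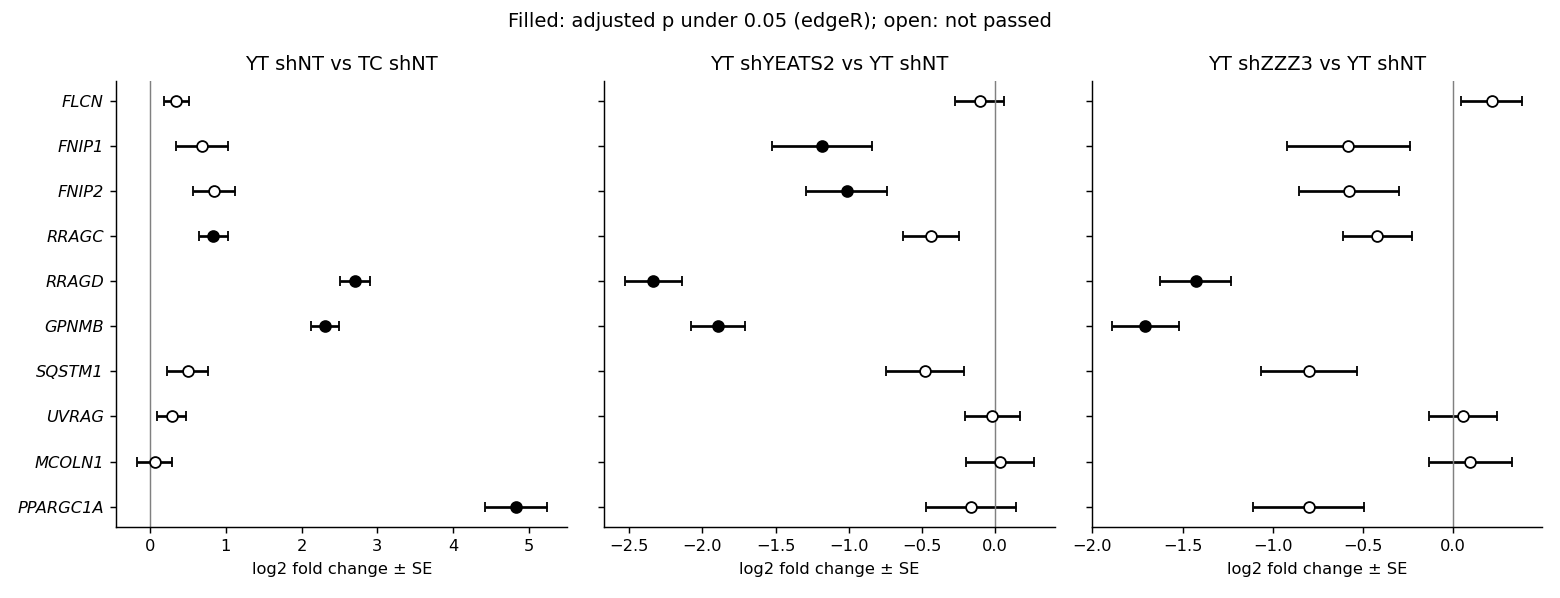
Log2 fold change with its SE (horizontal axes) of the 10 genes in YT shNT against TC shNT and in each YT knock-down against YT shNT; filled points passed the adjusted p threshold. RRAGD and GPNMB are filled in all 3 panels, and PPARGC1A only in the first.

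Of the genes that act on RagC and RagD, none passed between the shNT lines. FLCN codes for folliculin, the GTPase-activating subunit for RagC and RagD (chromosome 17, 17212212 to 17237188). Its lowest level in any library was 33.5 and its highest 55.8 CPM. It was at 39.6 and 33.5 CPM in TC shNT and at 45.9 and 47.4 CPM in YT shNT (log2 fold change 0.35, SE 0.168, adjusted p = 0.229). Among the knock-downs it was at 46.3 and 48.8 CPM in TC shYEATS2, 37.0 and 34.0 CPM in TC shZZZ3, 44.4 and 42.6 CPM in YT shYEATS2 and 55.8 and 52.4 CPM in YT shZZZ3. FLCN passed in none of the 7 tests, although with the GC trend removed the difference between the shNT lines did (0.44, adjusted p = 0.0345). FLCN overlaps MPRIP on the other strand, and how the counting handled strand is not given in the sources used here, so that reads of both may be mixed.

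FNIP2 codes for a folliculin-interacting protein (chromosome 4, 158769026 to 158908050). It was at 21.1 and 34.9 CPM in TC shNT and at 53.4 and 47.0 CPM in YT shNT, without overlap (log2 fold change 0.85, SE 0.278, adjusted p = 0.0856). With DESeq2 it passed (adjusted p = 0.0423). FNIP2 was called lower in YT shYEATS2, at 25.6 and 24.1 CPM (-1.01, SE 0.278, adjusted p = 0.0257). It was at 25.1 and 42.2 CPM in YT shZZZ3, 26.7 and 23.5 CPM in TC shYEATS2 and 16.4 and 16.4 CPM in TC shZZZ3, and none of these comparisons passed.

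FNIP1, the paralog (chromosome 5, 131641714 to 131797017), was at 44.9 and 89.3 CPM in TC shNT and at 126 and 90.2 CPM in YT shNT (log2 fold change 0.69, SE 0.343, adjusted p = 0.250). It was called lower in YT shYEATS2, at 51.5 and 43.9 CPM (-1.18, SE 0.344, adjusted p = 0.0339). The levels were 51.3 and 93.4 CPM in YT shZZZ3, 52.0 and 69.0 CPM in TC shYEATS2 and 51.4 and 45.1 CPM in TC shZZZ3. The calls of FNIP1 and FNIP2 in YT shYEATS2 were lost without any 1 of the 4 libraries of the comparison (adjusted p 0.0706 to 0.227 for FNIP1 and 0.0926 to 0.163 for FNIP2), and that of FNIP1 also without either TC shZZZ3 library (0.0522 and 0.0521) and with library totals (0.0534). FNIP1 has 38.7% GC and FNIP2 43.6%, and both were lower in the replicate that held less of the GC-poor transcripts in TC shNT and in YT shZZZ3. With the GC trend removed, the YT shYEATS2 falls were -0.86 for FNIP1 (adjusted p = 0.00264) and -0.87 for FNIP2 (adjusted p = 0.00463), and FNIP2 passed between the shNT lines (0.73, adjusted p = 0.0206). Without TC shNT replicate 2 both genes passed between the shNT lines (FNIP1 1.24, adjusted p = 0.0343, and FNIP2 1.23, adjusted p = 0.0216).

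GPNMB, a transmembrane glycoprotein of lysosomes and melanosomes and a marker of MiT/TFE activity, had the highest level per length of the 10 genes in YT shNT over all annotated exons, at 72.5 CPM per kilobase (chromosome 7, 23235967 to 23275108). It was at 73.4 and 99.1 CPM in TC shNT and at 410 and 446 CPM in YT shNT, which was 4.96-fold (log2 fold change 2.31, SE 0.185, adjusted p = 5.32e-05). In the YT line it was at 116 and 114 CPM with shYEATS2 and at 127 and 136 CPM with shZZZ3. In the TC line it was at 74.6 and 76.2 CPM with shYEATS2 and at 93.0 and 115 CPM with shZZZ3. No library outside YT shNT passed 136 CPM, and YT shYEATS2 overlapped TC shZZZ3. Melanocytes and macrophages also express GPNMB: of the melanocyte markers TYR and SOX10 had 0 counts in every library and MLANA reached 0.115 CPM, and of the macrophage markers PTPRC, AIF1 and CD163 reached at most 0.158 CPM, CSF1R reached 0.655 CPM and CD14 ranged from 0.603 to 4.13 CPM. The summed macrophage list was at 0.920 to 1.27 CPM in YT shNT and 1.195 to 1.68 CPM in TC shNT, and the summed melanocyte list at 4.44 to 5.12 CPM and 1.91 to 3.15 CPM. The macrophage sum was highest in YT shYEATS2, at 4.16 to 4.49 CPM, and the melanocyte sum in YT shZZZ3, at 11.2 to 15.1 CPM, mostly from DCT. GPNMB was lower in both of these groups than in YT shNT, and the part of these markers in its values was not tested.

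SQSTM1, the autophagy receptor p62, was next to GPNMB per length in YT shNT (68.8 CPM per kilobase of exon) and above it in TC shNT (48.6 against 14.6). Over the longest coding transcript the order in YT shNT turned (182 for SQSTM1 and 155 for GPNMB). It is on chromosome 5, 179806398 to 179838078, and overlaps MGAT4B and MRNIP on the other strand. It was at 449 and 283 CPM in TC shNT and at 500.3 and 536 CPM in YT shNT (log2 fold change 0.50, SE 0.266, adjusted p = 0.281). With shYEATS2 it was at 549 and 397 CPM in TC and 381 and 362 CPM in YT (log2 fold change in YT -0.48, adjusted p = 0.222). With shZZZ3 it was at 370 and 303 CPM in TC and 359 and 237 CPM in YT, a log2 fold change of -0.80 in YT (SE 0.266, adjusted p = 0.0870). The YT shZZZ3 difference passed with DESeq2 (adjusted p = 0.0406) and with the GC trend removed (-0.87, adjusted p = 0.00408), a setting in which SQSTM1, with 57.1% GC, also passed between the shNT lines (0.63, adjusted p = 0.0236) and in YT shYEATS2 (-0.55, adjusted p = 0.0272).

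UVRAG, a Beclin-binding subunit of the class III phosphatidylinositol 3-kinase complex, and MCOLN1, the calcium channel of the lysosomal membrane, had the smallest range of the 10 genes, with FLCN next. UVRAG (chromosome 11, 75815210 to 76144232) ranged from 19.7 to 27.9 CPM over the 12 libraries. MCOLN1 (chromosome 19, 7522624 to 7534009) ranged from 14.1 to 22.1 CPM. Its window holds 2 extended E-boxes, and whether such letters bear on the level was not tested. Between the shNT lines the log2 fold changes were 0.29 for UVRAG (SE 0.189, adjusted p = 0.388) and 0.07 for MCOLN1 (SE 0.232, adjusted p = 0.894). Neither gene was called in any of the 7 tests.

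PPARGC1A had the largest fold change of the set. It codes for PGC-1 alpha, the coactivator that drives mitochondrial gene expression (chromosome 4, 23755041 to 23904089). In TC shNT it was at 0.381 and 0.621 CPM, from 10 and 13 counts, and in YT shNT at 15.5 and 12.7 CPM, from 294 and 221 counts. This was a log2 fold change of 4.82 (SE 0.405, adjusted p = 5.36e-05), a 28.3-fold higher level that rests on the low counts of the TC line. In the other TC groups it was at 0.74 and 1.56 CPM (shYEATS2) and at 1.30 and 1.34 CPM (shZZZ3). In YT it was at 13.4 and 11.7 CPM with shYEATS2 and at 6.70 and 9.52 CPM with shZZZ3, so that every YT library stayed above every TC library. Neither YT knock-down passed, with log2 fold changes of -0.17 for shYEATS2 (SE 0.308, adjusted p = 0.729) and -0.80 for shZZZ3 (SE 0.309, adjusted p = 0.137). With the GC trend removed the shZZZ3 difference passed (-0.73, adjusted p = 0.0317) and the shYEATS2 difference was 0.08 (adjusted p = 0.795).

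The knock-downs were compared next, to see which of these genes differed with each hairpin in each line. ZZZ3 itself was at 31.4 and 30.7 CPM in YT shYEATS2, against 71.2 and 49.1 CPM in YT shNT. In that group a lower YEATS2 and a lower ZZZ3 therefore cannot be told apart. In YT cells, RRAGD, GPNMB, FNIP1 and FNIP2 were lower with shYEATS2, and RRAGD and GPNMB were lower with shZZZ3. In YT shYEATS2 4 of 10 genes were called lower and 0 higher, where 11.1% of all genes were called lower and 9.61% higher. In YT shZZZ3 2 of 10 were called lower and 0 higher, where 5.62% of all genes were called lower and 4.40% higher. RRAGD fell by 2.34 on the log2 scale with shYEATS2 (SE 0.197, adjusted p = 3.89e-05) and by 1.43 with shZZZ3 (SE 0.195, adjusted p = 0.00141). GPNMB fell by 1.90 (SE 0.185, adjusted p = 7.68e-05) and by 1.71 (SE 0.185, adjusted p = 0.000531). The level left was 19.8% and 37.2% of YT shNT for RRAGD, and 26.9% and 30.7% for GPNMB. Both knock-downs were set against the same YT shNT libraries, which were also those of the comparison between the lines. The median log2 fold change of the 10 genes was -0.46 with shYEATS2 and -0.58 with shZZZ3, against -0.01 and 0.01 over all genes.

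In TC cells 0 of the 10 genes were called with either hairpin by edgeR or by DESeq2, and 3 of 10 had an unadjusted p under 0.05 with each. Over all 18415 genes, 927 had an unadjusted p under 0.05 with shYEATS2 and 1991 with shZZZ3. Of all genes, 0.0434% were called with shYEATS2 and 1.53% with shZZZ3. The fall of ZZZ3 RNA did not pass in that line in the main fit, where the study reports the knock-down by western blot. The log2 fold changes went from -0.19 for GPNMB to 1.17 for PPARGC1A with shYEATS2, and from -0.77 for FNIP2 to 1.41 for PPARGC1A with shZZZ3. For PPARGC1A these differences rest on 10 to 32 counts per library (adjusted p = 0.749 and 0.182).

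**Figure D3:**
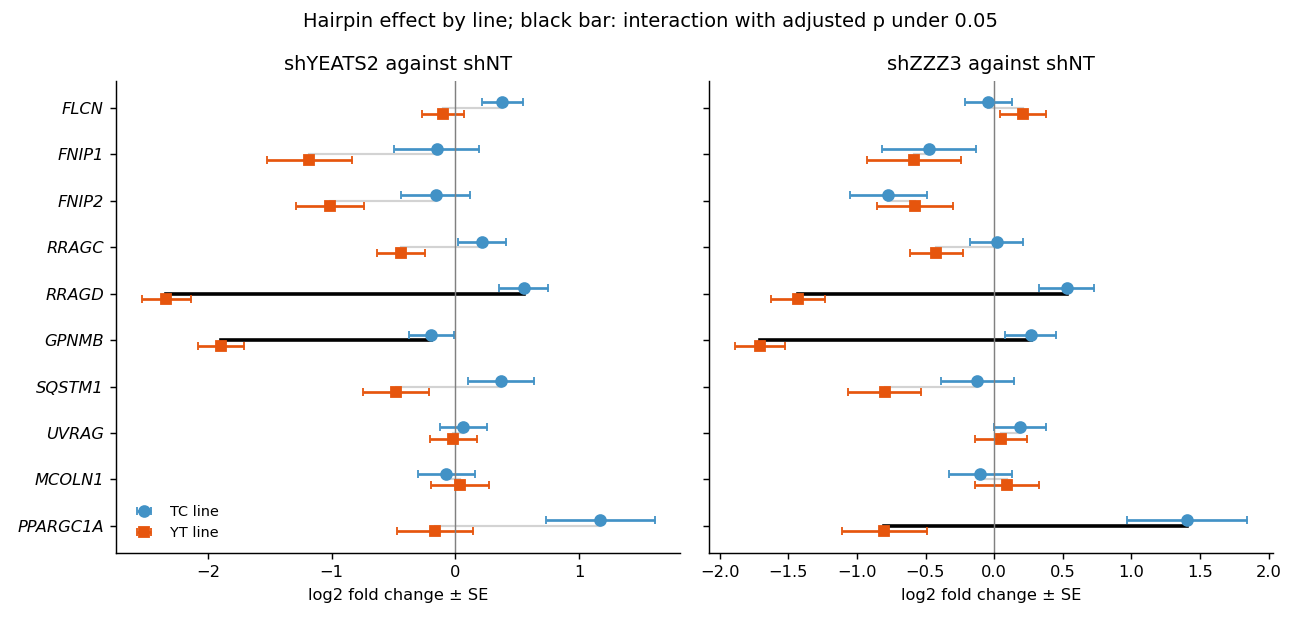
Log2 fold change with SE of each hairpin against shNT in the TC line (blue circles) and the YT line (orange squares) for the 10 genes; a black bar marks a difference between the lines that passed the threshold. Black bars join the points of RRAGD and GPNMB for both hairpins and of PPARGC1A for shZZZ3.

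The hairpin effect itself was tested for a difference between the lines (interaction, YT minus TC). It passed for RRAGD and GPNMB with shYEATS2, and for RRAGD, GPNMB and PPARGC1A with shZZZ3. Each of these differences was below 0, where 5.84% and 2.86% of all genes were called below 0. RRAGD went down in YT while its values in the TC knock-downs were above TC shNT, and the difference was -2.89 (SE 0.281, adjusted p = 0.000180) with shYEATS2 and -1.96 (SE 0.280, adjusted p = 0.00353) with shZZZ3. For GPNMB the difference was -1.70 (SE 0.262, adjusted p = 0.00205) and -1.97 (SE 0.261, adjusted p = 0.00251). For PPARGC1A the shZZZ3 difference was -2.21 (SE 0.535, adjusted p = 0.0388), with the highest counts in its TC groups at 32, and 8 of the 12 fits that left out a library lost it (adjusted p up to 0.159). The PPARGC1A difference joined a higher level in TC shZZZ3 to a lower one in YT shZZZ3, and neither was called on its own in the main fit. FNIP1 and FNIP2 did not pass with shYEATS2 (-1.03, adjusted p = 0.224, and -0.86, adjusted p = 0.212), so their falls in YT were not shown to differ from TC. Without TC shNT replicate 2 both passed (-1.59, adjusted p = 0.0322, and -1.24, adjusted p = 0.0452).

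The family of factors that act on these genes was examined beside them. TFEC was at 2 or fewer counts in every library and was not tested. Of the 3 others, TFE3 is described above. TFEB was at 21.1 and 12.3 CPM in TC shNT and at 13.9 and 14.5 CPM in YT shNT, and passed in no comparison of the main fit. In YT shYEATS2 it was at 19.9 and 21.9 CPM. Against YT shNT this passed by edgeR when the 2 groups were fitted alone (log2 fold change 0.55, adjusted p = 0.00723). It also passed with the replicate block and the GC trend removed (0.45, adjusted p = 0.0442). MITF was at 4.69 and 6.93 CPM in TC shNT and at 9.71 and 7.30 CPM in YT shNT (log2 fold change 0.55, adjusted p = 0.265). MITF was called higher in YT shYEATS2, at 18.2 and 15.5 CPM (0.99, SE 0.281, adjusted p = 0.0296; without any 1 of the 4 libraries of the comparison it did not pass), the group in which RRAGD, GPNMB, FNIP1 and FNIP2 were called lower.

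Other genes of the pathways were taken from lists, which were chosen with earlier results of these data known. Their counts stand beside the shares of all genes called. These were 5.58% higher and 3.65% lower between the shNT lines. In the YT line they were 9.61% higher and 11.1% lower for shYEATS2, and 4.40% higher and 5.62% lower for shZZZ3. An unadjusted p under 0.05 was found for 4408 of 18415 genes between the shNT lines and for 4508 with shZZZ3 in YT. Among 25 other genes of the Rag, Ragulator and lysosomal amino acid sensing machinery, 2 were called higher with the YT fusion and 0 lower under shNT (list median log2 fold change -0.17, all genes -0.01). They were SESN2, a leucine sensor that restrains GATOR2, and KICS2, a subunit of the KICSTOR scaffold that holds GATOR1 at the lysosome. SESN2 was at 35.5 and 27.9 CPM in TC shNT and at 84.4 and 89.9 CPM in YT shNT (1.46, adjusted p = 0.00940). KICS2 was at 6.90 and 9.70 CPM in TC shNT and at 18.4 and 18.6 CPM in YT shNT (1.16, adjusted p = 0.0119). Both were called lower in both YT knock-downs: SESN2 fell by 1.25 on the log2 scale with shYEATS2 (adjusted p = 0.0108) and by 1.34 with shZZZ3 (adjusted p = 0.0134), and KICS2 by 1.31 (adjusted p = 0.00317) and by 1.61 (adjusted p = 0.00208). In all, 3 of the 25 were called lower in YT shYEATS2, MIOS being the other, and 2 in YT shZZZ3, with 0 higher in either. These shares of 12% and 8% are near those of all genes (11.1% and 5.62%).

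Of 12 genes of mTORC1 and its regulators, 1 was called between the shNT lines: DEPTOR, an inhibitor bound to mTOR, was lower in YT, at 35.5 against 64.6 CPM (-0.86, adjusted p = 0.0251). In YT shYEATS2 3 of the 12 were called lower: DEPTOR again, EIF4EBP1, which codes for the translation repressor 4E-BP1 (-1.61, adjusted p = 0.00884), and RHEB, the GTPase that activates mTORC1 (-0.69, adjusted p = 0.0112). In YT shZZZ3 0 of the 12 were called by edgeR, 1 had an unadjusted p under 0.05, and 1, EIF4EBP1, was called by DESeq2.

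Most genes of the autophagy lists did not pass. Of 21 initiation and nucleation genes, 3 were higher in YT shNT and 0 lower (median 0.18): RB1CC1 (FIP200, the scaffold of the ULK1 complex), NRBF2 and WIPI1. RB1CC1 was at 35.7 and 84.6 CPM in TC shNT and at 212 and 130 CPM in YT shNT (1.51, adjusted p = 0.0448), a call lost in 11 of 20 alternatives. It fell by 2.45 in YT shYEATS2 (adjusted p = 0.00253) and by 1.71 in YT shZZZ3 (adjusted p = 0.0254). WIPI1, which reads phosphatidylinositol 3-phosphate on forming autophagosomes, was also called lower in YT shZZZ3 (-0.87, adjusted p = 0.0210). RB1CC1 was the 1 gene of the 21 called in YT shYEATS2 (4.76%, below the 11.1% of all genes called lower), and 2 of the 21 (9.52%) were called lower in YT shZZZ3.

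Of 16 ATG8 and ATG8-conjugation genes, 2 were higher in YT shNT and 0 lower (median 0.09). MAP1LC3B, the LC3B protein of the autophagosome membrane, was at 147 and 132 CPM in TC shNT and at 285 and 303 CPM in YT shNT (1.08, adjusted p = 0.00247). It dropped to 137 and 120 CPM in YT shYEATS2 (-1.198, adjusted p = 0.000601) and to 160 and 135 CPM in YT shZZZ3 (-0.995, adjusted p = 0.00396). GABARAPL1, its relative, was at 47.8 and 50.9 CPM in TC shNT and at 110 and 105 CPM in YT shNT (1.124, adjusted p = 0.00168), and fell by 1.07 in YT shZZZ3 (adjusted p = 0.00228). GABARAP went the other way in YT shYEATS2 (0.95, adjusted p = 0.0476), where 1 of the 16 genes was called higher (6.25%) and 2 lower (12.5%), near the 9.61% and 11.1% of all genes.

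Of 12 autophagy receptors other than SQSTM1, 3 were higher in YT shNT and 0 lower (median 0.22): OPTN, RETREG1 and BNIP3. OPTN, a receptor for damaged mitochondria and bacteria, was at 59.8 and 68.5 CPM in TC shNT and at 146 and 140 CPM in YT shNT (1.16, adjusted p = 0.00134), and was called lower in YT shZZZ3 (-0.88, adjusted p = 0.00608). RETREG1, a receptor for the endoplasmic reticulum, was 2.52-fold higher in YT shNT (1.33, adjusted p = 0.00903) and fell by 1.56 in YT shZZZ3 (adjusted p = 0.00408). In YT shYEATS2 the mitochondrial receptor BNIP3L (-1.10, adjusted p = 0.0136) and TAX1BP1 (-0.98, adjusted p = 0.0264) were called lower beside OPTN, and in YT shZZZ3 OPTN, RETREG1 and BNIP3 were.

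**Figure D4:**
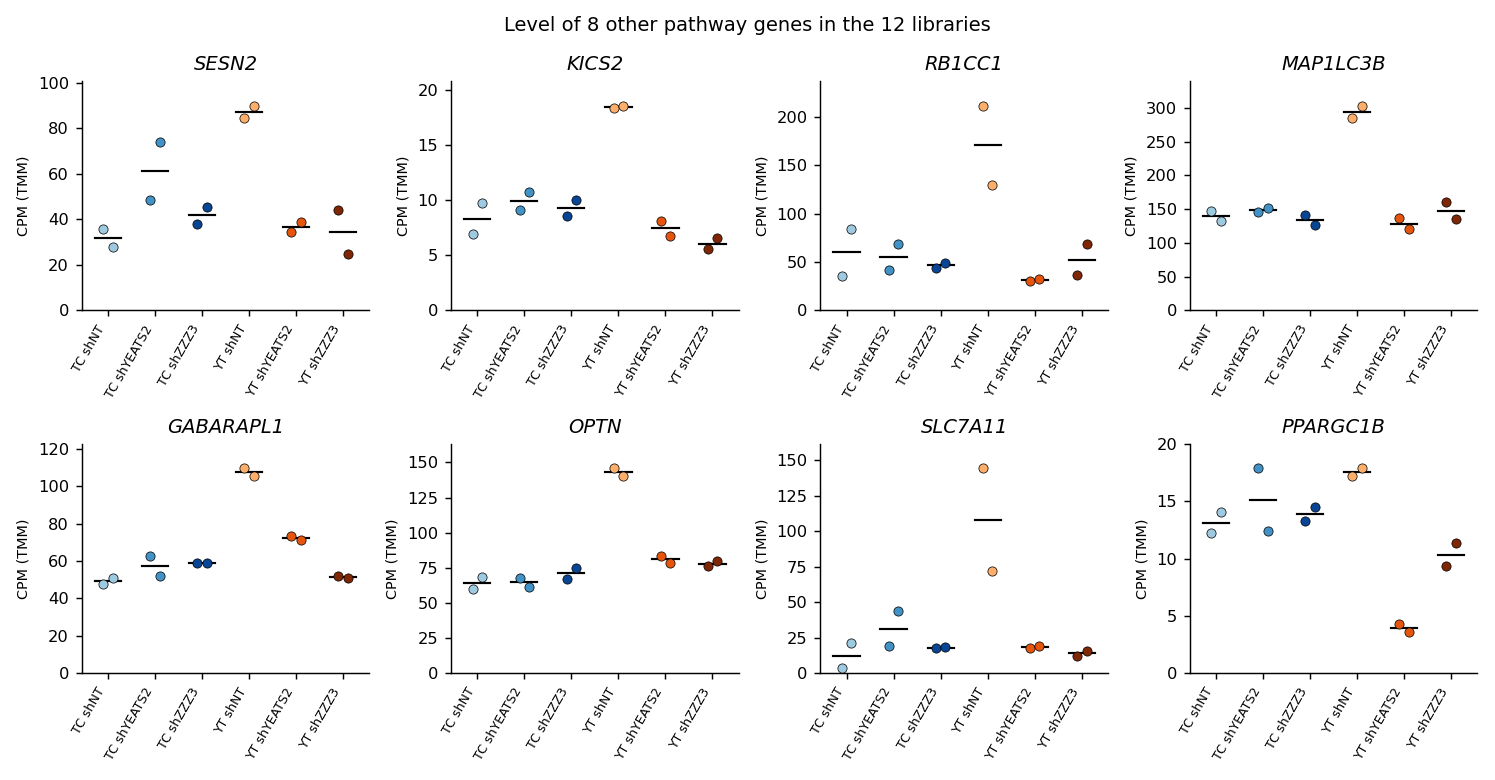
Level in CPM (vertical axes, from 0) of 8 genes from the lists of nutrient sensing, autophagy, NRF2 and PGC-1 genes in the 12 libraries by group; points are libraries and bars are group means. By group mean YT shNT is the highest for SESN2, KICS2, RB1CC1, MAP1LC3B, GABARAPL1, OPTN, SLC7A11 and PPARGC1B. These 8 were picked from the named genes, of which others, UCP2, GABARAP and DEPTOR among them, had a lower mean in YT shNT than in TC shNT. PPARGC1B was not called between the shNT lines (edgeR adjusted p = 0.304). Its TC shYEATS2 replicate 1, at 17.9 CPM, lies above YT shNT replicate 1, at 17.3 CPM.

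SQSTM1 is also a target of NRF2, the factor of the oxidative stress response, and 10 other NRF2 targets were therefore examined. Of these, 3 were higher in YT shNT and 0 lower (median 0.84), 4 were lower and 1 higher in YT shYEATS2 (median -0.70), and 6 were lower and 0 higher in YT shZZZ3 (median -1.39), against medians of -0.01, -0.01 and 0.01 over all genes. SLC7A11, the cystine transporter, was at 3.55 and 20.8 CPM in TC shNT and at 144 and 71.8 CPM in YT shNT (3.16, adjusted p = 0.0130), and fell by 2.57 with shYEATS2 (adjusted p = 0.0170) and by 2.97 with shZZZ3 (adjusted p = 0.0159). TXNRD1, thioredoxin reductase, was 2.29-fold higher in YT shNT (adjusted p = 0.0219). OSGIN1 fell by 2.28 in YT shZZZ3 (adjusted p = 0.00730), and ME1, malic enzyme, fell by 1.72 in YT shYEATS2 (adjusted p = 0.00248).

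Of 10 genes for PGC-1 partners and mitochondrial targets, 0 were called between the shNT lines by edgeR, 2 had an unadjusted p under 0.05, and 1, UCP2, was called by DESeq2 (median 0.10). PPARGC1B, the paralog of PPARGC1A, was at 17.3 and 17.9 CPM in YT shNT and fell by 2.17 in YT shYEATS2, to 4.25 and 3.56 CPM (adjusted p = 0.000174), a group in which PPARGC1A did not pass. UCP2, a mitochondrial inner membrane carrier, was higher in YT shYEATS2 (2.23, adjusted p = 0.00106) and in YT shZZZ3 (1.999, adjusted p = 0.00410). Of 8 paralogs of MCOLN1 and other lysosomal calcium genes, 0 were called between the shNT lines by edgeR or DESeq2, 1 had an unadjusted p under 0.05, and 2 were higher in YT shYEATS2: MCOLN3 (1.66, adjusted p = 0.0453) and TPCN1 (0.80, adjusted p = 0.0245).

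In the TC knock-downs 0 of the 117 genes tested from these lists were called by edgeR. The shares of all genes called there were also small, at 0.0434% with shYEATS2 and 1.53% with shZZZ3. With shYEATS2 6 of the 117 had an unadjusted p under 0.05 and 1, OSGIN1, was called by DESeq2, and with shZZZ3 these counts were 6 and 0. Among all 18415 genes, 927 had an unadjusted p under 0.05 with shYEATS2 and 1991 with shZZZ3. Of the 38 calls of list genes chosen for naming in the YT comparisons, 13 were kept in all 20 alternatives, among them all 3 of MAP1LC3B, both of GABARAPL1, the falls of KICS2, the rise of OPTN between the lines and the shYEATS2 falls of RB1CC1, ME1 and PPARGC1B. The other 25 were lost in 1 to 11 alternatives and changed sign in 0.

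The genes with the most similar pattern over the 12 libraries were listed for the 3 members that varied most, by Pearson's correlation of log2 CPM among 13258 genes. The libraries share their groups, so the values only describe likeness. For GPNMB they were OPTN (r = 0.985), P2RX7 (0.978) and SIRT5 (0.968), and for RRAGD CTSS (0.968), SPRYD7 (0.962) and PPFIBP2 (0.961). GPNMB and RRAGD correlated with each other at 0.942. For PPARGC1A they were CDKN2B (0.976), PPIC (0.960) and RASGRF2 (0.950), and its correlation with RRAGD was 0.666. SQSTM1 correlated with RRAGD at 0.331 and with PPARGC1A at 0.024.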

How the data were processed

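The authors prepared stranded poly(A)-selected libraries, ran the reads through bcbio-nextgen with HISAT2 on hg38, and deposited raw counts per gene for each library. Salmon with tximport is also described, and which of the routes gave the deposited counts, and how strand was handled, is not given in the sources used here; 5 of the 10 genes overlap an annotated gene on the other strand. Groups came from the labels. Genes were joined by Ensembl ID and named from GENCODE. The 18415 genes averaging 5 or more counts were tested in edgeR (version 4.0.16, R 4.3.3) by a quasi-likelihood model over all 6 groups with TMM scaling and robust estimation. From this fit 7 contrasts were tested, two-sided, with Benjamini-Hochberg adjustment over all genes. The common coefficient of variation was 0.205. The scripts were tested on simulated data. The genes, lists and tests were chosen with earlier results of these data known. From each list at most 2 called genes per contrast of YT shNT, those that changed most without overlap of libraries, were named. WIPI1 and BNIP3 in YT shNT, and MIOS, DEPTOR and BNIP3 in the knock-downs, were named after their values were seen, because their lists had few calls. Log2 CPM for the comparison of replicates and the GC trend used a prior count of 2. Correlations between genes used log2(CPM + 0.1) and the 13258 genes averaging 50 or more counts. Alternatives were other scaling, DESeq2 (version 1.42.0), no filter, fits of single contrasts, a replicate block, removal of each library's GC trend and leaving out each library. A positional or sequence-level analysis of the reads was not done here.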

Additional observations from a re-analysis of the deposited data

Results flagged for a closer look

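The effect of a hairpin differed between the lines by the test of the difference itself (interaction, YT minus TC, on the log2 scale, edgeR adjusted p under 0.05) for the following genes. With shYEATS2 it was -2.89 for RRAGD and -1.70 for GPNMB, and with shZZZ3 -1.96 for RRAGD, -1.97 for GPNMB and -2.21 for PPARGC1A. The other genes were named from the lists for calls in comparisons with YT shNT, whose libraries also enter this difference. The choice favours such differences, so their values and common sign only describe these genes. Of all genes, 5.84% were called below 0 with shYEATS2 and 2.86% with shZZZ3. Among the genes named from the lists, the shYEATS2 difference was -2.20 for SESN2, -1.56 for KICS2, -1.90 for EIF4EBP1, -1.10 for DEPTOR, -2.33 for RB1CC1, -1.28 for MAP1LC3B and -0.83 for OPTN. It was -3.94 for SLC7A11, -2.20 for ME1, -1.87 for TXNRD1, -3.14 for OSGIN1 and -2.38 for PPARGC1B, and 2.47 for UCP2, the single gene among these that went higher. The shZZZ3 difference was -1.74 for SESN2, -1.78 for KICS2, -1.33 for GABARAPL1, -0.94 for MAP1LC3B, -1.72 for RETREG1, -1.02 for OPTN, -2.24 for ME1 and -1.86 for TXNRD1. The replicates of TC shYEATS2 lay far apart. There SESN2 was at 48.6 and 73.7 CPM, SLC7A11 at 18.8 and 43.4, TXNRD1 at 899 and 450 and OSGIN1 at 127 and 50.1. Their means in TC shNT were 31.7, 12.2, 386 and 28.1 CPM, so each also had a higher mean in TC shYEATS2. The part of this spread in the differences was not tested.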

How the results depend on the processing

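The calls of RRAGD and GPNMB in YT shNT against TC shNT, in both YT knock-downs and in both interactions, and that of PPARGC1A between the shNT lines, were kept in all 20 alternatives, with log2 fold changes of 2.49 to 2.90 for RRAGD and 2.08 to 2.52 for GPNMB between the lines. Over the 70 contrasts of the 10 genes and 1400 alternatives, 1285 kept sign and side of the threshold, 39 newly passed, 24 no longer passed and 52 changed sign, 0 of the latter past the threshold in either fit. With the GC trend removed, 7 of the 10 genes were called in YT shNT against TC shNT and 1 in TC shZZZ3. The number was 4 in YT shZZZ3 and 4 in the YEATS2 interaction. Over all genes this setting called 3242, 641, 3713 and 3658 in these comparisons, against 1699, 281, 1846 and 1725 in the main fit. With the replicate block and the GC trend removed, 7, 2, 6 and 4 of the 10 genes were called. Over all genes that setting called 4011, 929, 4445 and 4467. Leaving out 1 library gave 3 to 6 called genes in YT shNT against TC shNT, 2 to 4 in YT shYEATS2, 2 to 3 in YT shZZZ3, 2 to 4 in the YEATS2 interaction and 2 to 3 in the ZZZ3 interaction. The number of all genes called also varied with the library left out. Replicate numbers were not taken to pair the libraries, since the deviations of same-numbered libraries correlated above 0.1 in 7 of 15 pairs of groups (-0.438 to 0.898). They did so in all 6 pairs among the TC groups and YT shZZZ3 (0.180 to 0.898), and replicate 2 had fewer counts and a higher mitochondrial share than replicate 1 in all 6 groups, so that a shared difference between the replicate numbers was present in part of the data. The replicate block changed 1 call of the 10 genes, SQSTM1 in YT shZZZ3 (-0.84, adjusted p = 0.0198 by edgeR), which made 3 called genes there. The sign changes fell in 21 of the 70 contrasts. Of the values printed here for single genes, those that changed sign were UVRAG in YT shYEATS2 (4.33e-05 with DESeq2 size factors, 0.000546 with DESeq2, 0.0705 with the GC trend removed, 0.0728 with block and GC, -0.0828 to 0.0683 without 1 library), PPARGC1A in YT shYEATS2 (0.0840 in both GC settings), MCOLN1 in YT shYEATS2 (-0.00983 with library totals, -0.0605 with the GC trend removed and -0.0613 with block and GC), MCOLN1 in YT shNT against TC shNT (-0.20 to 0.33 without 1 library) and in YT shZZZ3 (-0.0942 to 0.29), GPNMB in TC shYEATS2 (-0.41 to 0.0256), TFEB between the shNT lines (-0.60 to 0.18) and in YT shZZZ3 (-0.37 to 0.28, and 0.0192 without a filter) and MITF in YT shZZZ3 (-0.40 to 0.15). For these the cause was not tested. Of the ZZZ3 falls, that in YT went from -2.26 to -0.97 and that in TC from -1.45 to -0.22 without 1 library. With 2 libraries per group the spread within a group is poorly known, and counts of 10 to 32 limit PPARGC1A in TC.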
